A study of Mus musculus with 12 samples.

Results

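The dual specificity MAP kinase phosphatases measured here are 8 genes, Dusp1, Dusp2, Dusp4, Dusp5, Dusp6, Dusp7, Dusp10 and Dusp16. They were taken as every probe set of the array annotated with 1 of these symbols alone, which gave 12 probe sets out of 34945 with a single symbol, and 8 genes out of 18193. All 8 genes passed the filter on dim signal and were tested among 11906 genes. The members were selected on their signal in the double knockout against wild type: Dusp2 was low, and Dusp4 and Dusp16 were high, in marrow lacking both Fancc and Fancg. Values of the double knockout are therefore given below as a description, without a test. The tests of a single knockout against wild type use the same 3 wild-type arrays as that selection, so for these members they are not independent of it.

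Whole bone marrow of tibia and femur was profiled in 12 mice, 3 in each of 4 groups, with 1 Affymetrix array per mouse and no pooling of RNA. The groups were mice lacking both Fancc and Fancg (the double knockout, Fancc-/-//Fancg-/-), mice lacking Fancg (Fancg-/-), mice lacking Fancc (Fancc-/-) and wild-type C57Bl/6 mice. Fancc and Fancg proteins belong to the core complex of the Fanconi anemia pathway, by which cells repair crosslinked DNA. The knockouts affect every cell of the animal, no treatment is described, and the labels give neither the age and sex of the mice nor the strain background of the knockouts.

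MAP kinases (the ERK, JNK and p38 families) are switched on by phosphorylation of a threonine and a tyrosine in the same loop, and these phosphatases remove both phosphates and so end the signal. Dusp1, Dusp2, Dusp4 and Dusp5 are nuclear enzymes whose genes are induced by the kinases they switch off, Dusp6 and Dusp7 are cytoplasmic enzymes with a preference for ERK, and Dusp10 and Dusp16 act mainly on JNK and p38. In blood-forming tissue Dusp2 is known as a phosphatase of activated lymphocytes and myeloid cells.

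Promoter sequence was listed for 7 of the 8 genes, all but Dusp4, in RefSeq on GRCm38.p6. The 250 bases before the gene's start are printed 5′ to 3′ on the gene's strand for the 4 genes that the results turn on most, or that differ most in the motifs searched. They are Dusp2 (chr2:127335909-127336158, plus strand), Dusp16 (chr6:134792629-134792878, minus strand), Dusp1 (chr17:26508473-26508722, minus strand) and Dusp5 (chr19:53528895-53529144, plus strand). Capitals mark matches, on either strand, to the full cAMP response element (TGACGTCA), the short core of that element (TGACG), the serum response element and the E-box (CACGTG).
Dusp2: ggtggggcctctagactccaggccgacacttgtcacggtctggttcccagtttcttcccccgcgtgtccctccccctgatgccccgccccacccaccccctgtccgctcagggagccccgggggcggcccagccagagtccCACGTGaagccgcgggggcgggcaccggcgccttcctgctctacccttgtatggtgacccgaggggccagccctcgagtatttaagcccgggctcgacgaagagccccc
Dusp16: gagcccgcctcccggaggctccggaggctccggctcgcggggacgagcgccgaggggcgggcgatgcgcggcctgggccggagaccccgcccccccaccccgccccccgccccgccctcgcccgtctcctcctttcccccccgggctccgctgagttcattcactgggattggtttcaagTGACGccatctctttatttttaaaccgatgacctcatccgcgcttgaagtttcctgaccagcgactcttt
Dusp1: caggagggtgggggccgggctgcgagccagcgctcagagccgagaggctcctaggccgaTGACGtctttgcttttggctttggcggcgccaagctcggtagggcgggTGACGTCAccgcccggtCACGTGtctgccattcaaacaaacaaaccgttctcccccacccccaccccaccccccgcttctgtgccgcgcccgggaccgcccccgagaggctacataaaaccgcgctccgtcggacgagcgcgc
Dusp5: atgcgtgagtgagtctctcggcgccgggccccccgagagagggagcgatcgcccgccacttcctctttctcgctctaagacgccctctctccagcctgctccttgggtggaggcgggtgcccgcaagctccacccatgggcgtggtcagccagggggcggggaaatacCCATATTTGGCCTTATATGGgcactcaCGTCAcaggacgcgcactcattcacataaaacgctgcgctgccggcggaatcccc
The Dusp1 promoter held the full cAMP response element, starting 143 bases before the start, where the core also matches on both strands, as well as a separate core starting at 191 bases and an E-box at 126 bases. Of 32841 promoters of this length, 1.55% held the full element and 17.8% the core. Dusp5 held 2 adjoining serum response elements, at 82 and 72 bases before the start, in a window where 1.47% of promoters hold any, and a core at 55 bases. Dusp16 held only a core, at 70 bases, and Dusp2 only an E-box, at 109 bases, a motif in 6.02% of promoters. None of the 7 promoters held an AP-1 site (TGANTCA, in 6.75% of promoters) or a TATA box spelled TATAAA (in 12.4%). A match is a match of letters only, and no binding was measured.

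Signals are log2 values per probe set as the authors deposited them, so a difference of 1 is a doubling. The values of replicates 1 to 3 of a group are given in that order, and a change is the first-named group minus the second, with its standard error (SE) from 1 limma model over the 12 arrays. Changes with an adjusted p (Benjamini-Hochberg, over all genes tested) below 0.05 were called. Levels are not compared between genes, because probe sets differ in brightness at equal RNA. Marrow is a mixture, so fewer cells of a type and less RNA per cell cannot be told apart. Each array is a separate mouse, and the number of arrays limits the precision.

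Of 12 lists of marrow cell markers, 10 had every measured gene above the array median on at least 1 array. The exceptions were the dendritic cell marker Xcr1 and the stromal marker Lepr, each not above it on any array. The log2 of the summed signal of 9 late neutrophil genes ran from 16.64 to 16.72 in the double knockout, 16.64 to 16.82 in Fancg-/-, 16.54 to 16.74 in Fancc-/- and 16.68 to 16.78 in wild type. That list varied little between arrays, whereas the markers of basophils, mast cells and eosinophils ran from 12.70 to 13.44 in the double knockout, 13.22 to 13.71 in Fancg-/-, 10.36 to 13.30 in Fancc-/- and 13.63 to 13.87 in wild type. Some arrays did not follow their group. The array labelled double-knockout replicate 1 had immediate early gene signals near those of the other genotypes, and its values are set beside replicates 2 and 3 below. The signal of Fancg (probe set 1420960_at) was 5.61 to 5.83 in the double knockout, 6.55, 6.00 and 6.64 in Fancg-/-, 6.43 to 6.72 in Fancc-/- and 6.80 to 6.86 in wild type. Fancg-/- replicates 1 and 3 thus lay among the Fancc-/- arrays on this probe set. On the other Fancg probe set (1450059_at) they were at 6.43 and 6.67, below the Fancc-/- arrays (6.68 to 6.78) and the wild-type arrays (6.82 to 6.92) but above Fancg-/- replicate 2 (5.92) and the double knockout (5.41 to 5.67). No Fancc probe set was lower in Fancc-/- than in wild type, and the sources used here do not give whether these probes lie in the deleted part. The Y-linked gene Eif2s3y (1417210_at) was at 8.81 to 9.35 in the double knockout, 7.64, 9.09 and 5.78 in Fancg-/-, 2.94 to 3.30 in Fancc-/- and 2.89 to 3.20 in wild type, and Xist (1427262_at) was at 3.06 to 4.35 in the double knockout, 9.48, 4.31 and 9.01 in Fancg-/-, 9.40 to 10.52 in Fancc-/- and 9.95 to 10.80 in wild type. Another Y-linked gene, Kdm5d (1424903_at), was at 5.32 to 5.67 in the double knockout and 4.24, 5.22 and 3.35 in Fancg-/-. It was at 3.07 to 3.38 in Fancc-/- and 3.08 to 3.27 in wild type. By Eif2s3y and Xist, Fancg-/- replicates 1 and 3 carried both marks at once, but Kdm5d of Fancg-/- replicate 3 lay within the Fancc-/- range. Whether the RNA of these 2 arrays was mixed or mislabelled was not tested, so every result of Fancg-/- is given as labelled. Genotype and sex cannot be told apart between the double knockout and either wild type or Fancc-/-. The marks differed between Fancg-/- and either of those groups as well, since Eif2s3y was higher on all 3 Fancg-/- arrays. Fancc-/- and wild type carried the same marks.

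**Figure D1:**
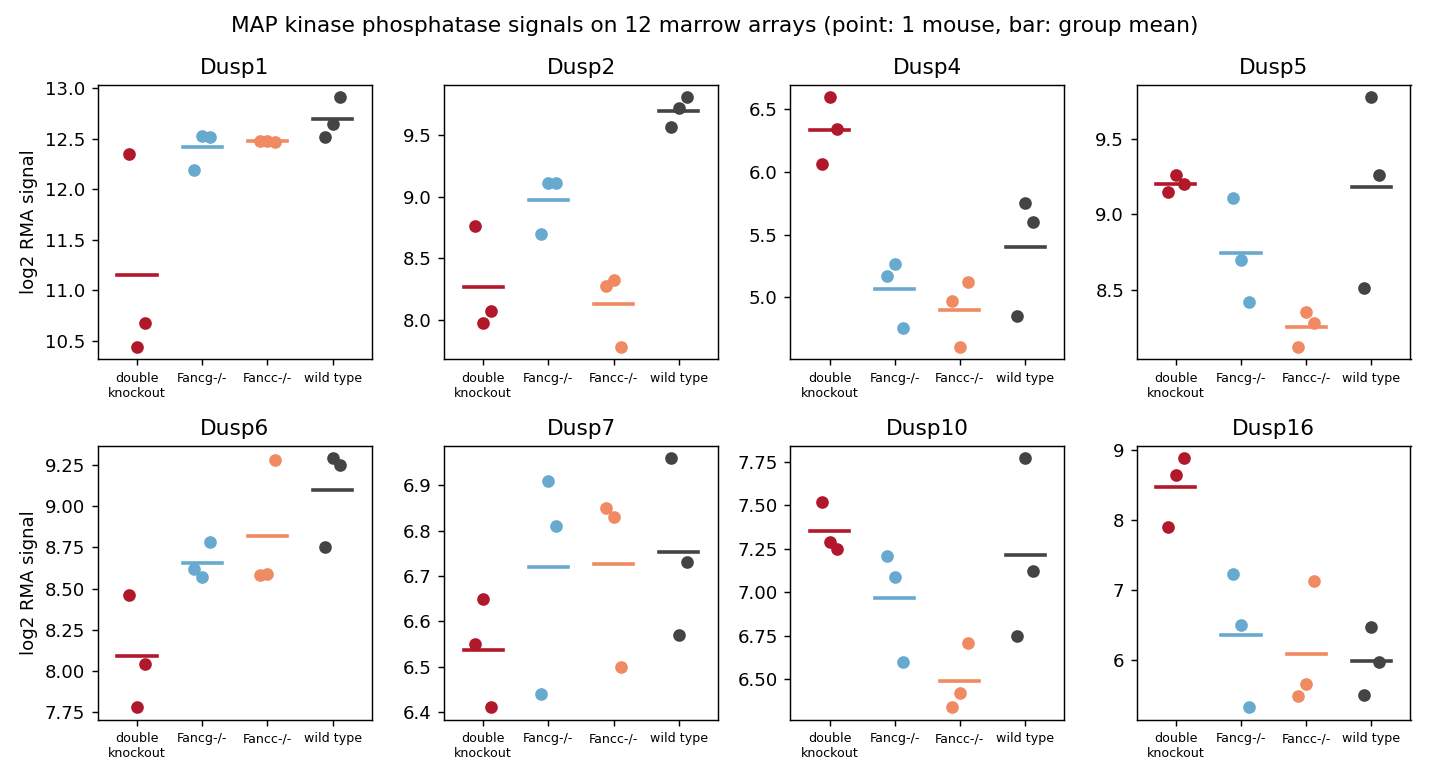
Log2 signal of the 8 phosphatase genes on each of the 12 arrays, 1 panel per gene, with groups on the x axis from the double knockout on the left to wild type on the right. Points are mice, with replicates 1 to 3 from left to right, and bars are group means. All 3 double-knockout arrays of Dusp16 (7.90 to 8.88) lie above every other array, and all 3 wild-type arrays of Dusp2 (9.57 to 9.81) lie above every other array.

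Dusp2, the nuclear phosphatase of activated lymphoid and myeloid cells, was the member with a called change in a single knockout. Its log2 signals (1450698_at) were 8.76, 7.97 and 8.07 in the double knockout, 8.70, 9.11 and 9.11 in Fancg-/-, 8.27, 8.32 and 7.78 in Fancc-/-, and 9.57, 9.72 and 9.81 in wild type. Every knockout array, of any genotype, lay below every wild-type array. In Fancc-/- the mean was 8.12 ± 0.30 against 9.70 ± 0.12 in wild type (SD, n = 3 each), a change of -1.58 ± 0.22 (SE), or 2.99-fold lower, with an adjusted p of 0.00269 by limma. The selection of Dusp2 as low in the double knockout rested on the same wild-type arrays. The signal was lower in 3 of 3 arrays and was called under all 25 alternative settings tried, with a change of -1.68 to -1.41 and an adjusted p of 0.000943 to 0.0169 when each array was left out in turn. In Fancg-/- the mean was 8.97 ± 0.24, and the change of -0.73 ± 0.22 against wild type did not pass the test (adjusted p = 0.358 by limma). Between the single knockouts, Dusp2 was 0.85 ± 0.22 higher in Fancg-/- than in Fancc-/-, and this too did not pass (adjusted p = 0.284 by limma). In the double knockout the change against wild type was -1.44 ± 0.22, and the mean of 8.27 ± 0.43 lay 0.14 ± 0.22 above that of Fancc-/-, with overlapping arrays.

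The markers of B cells moved with Dusp2. Of 14 B cell markers 13 had a single-symbol probe set, all of them above the array median on at least 1 array. In Fancc-/- against wild type 11 of the 13 were lower and 0 higher past the threshold, with a median change of -2.47, and in the double knockout against wild type 11 were lower, with a median of -2.25. In Fancg-/- against wild type the median was -1.35 and 0 passed. The log2 of their summed signal ran from 10.53 to 10.98 in the double knockout, 10.83 to 12.20 in Fancg-/-, 10.09 to 11.02 in Fancc-/- and 12.66 to 13.15 in wild type, so wild type stood above all knockout arrays, as for Dusp2. Across the 12 arrays the correlation of Dusp2 with the mean of these markers was 0.90, a description over arrays that share the genotypes. It was 0.81 with stem and progenitor markers, 0.80 with T and NK cell markers, 0.74 with basophil, mast cell and eosinophil markers, 0.73 with monocyte markers, 0.72 with early neutrophil granule markers and -0.61 with erythroid markers, so Dusp2 did not follow B cell markers alone. In Fancc-/- against wild type 3 of 8 basophil, mast cell and eosinophil markers were lower past the threshold (median -1.48), as were 2 of 10 T and NK cell markers (median -0.51). Of 10 stem and progenitor markers 1 was higher and 1 lower (median -0.44), or 1 higher and 3 lower with the replicate number as a block. Predicted genes, microRNAs and genes named by accession or clone were passed over in ranking the closest genes of each member. Those closest to Dusp2 by Pearson correlation among the other genes tested were Ms4a1, which encodes the B cell surface protein CD20 (r = 0.970), Txndc16 (r = 0.961) and Bank1, a B cell adaptor (r = 0.959). For deviations from the group means the correlations were 0.877, 0.785 and 0.913. Ms4a1 was at 8.79, 7.27 and 7.51 in the double knockout, 8.40, 8.96 and 9.40 in Fancg-/-, 7.47, 8.27 and 6.44 in Fancc-/-, and 10.32, 10.02 and 9.97 in wild type. It therefore shared with Dusp2 the high double-knockout replicate 1 and the low Fancc-/- replicate 3. The mean log2 signal of the 13 B cell markers did not show that high replicate 1, at 6.30, 6.25 and 6.23 in the double knockout. Dusp1, described below, had a correlation with Dusp2 of 0.59 over the 12 arrays and 0.82 for deviations from the group means. Erythroid markers moved the other way, with 8 of 12 higher past the threshold in Fancc-/- and 2 of 12 in the double knockout against wild type. The part of cell composition in the Dusp2 values was not tested.

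Dusp1, an immediate early gene whose nuclear product acts on p38 and JNK as well as ERK, was low on 2 arrays only. Its signals (1448830_at) were 12.35, 10.44 and 10.67 in the double knockout, 12.19, 12.53 and 12.52 in Fancg-/-, 12.48, 12.48 and 12.47 in Fancc-/-, and 12.52, 12.65 and 12.91 in wild type. Double-knockout replicates 2 and 3 were thus far below all other arrays, whereas replicate 1 lay within the range of the Fancg-/- arrays. The change of the double knockout against wild type was -1.54 ± 0.37, and -2.14 without replicate 1. The single knockouts were close to wild type, at -0.28 ± 0.37 in Fancg-/- (adjusted p = 0.961 by limma) and -0.22 ± 0.37 in Fancc-/- (adjusted p = 0.783), neither past the threshold. These standard errors rest on a spread that includes the split of the double-knockout arrays.

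The genes closest to Dusp1 over the 12 arrays were Fos (r = 0.988), Apc (r = 0.974) and Jun (r = 0.974), and the correlations stayed at 0.983, 0.963 and 0.941 for deviations from the group means. Fos and Jun encode the subunits of AP-1, and Apc a negative regulator of beta-catenin. Fos was at 12.80, 10.84 and 11.22 in the double knockout, 13.01, 13.38 and 13.30 in Fancg-/-, 13.21, 13.18 and 12.93 in Fancc-/-, and 13.36, 13.37 and 13.57 in wild type. The split of double-knockout replicate 1 from replicates 2 and 3 was therefore shared by Dusp1 and Fos.

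Dusp4, a nuclear phosphatase of ERK, JNK and p38 and close in sequence to Dusp1, was high in the double knockout. Its signals (1428834_at) were 6.06, 6.59 and 6.34 in the double knockout, 5.17, 5.27 and 4.76 in Fancg-/-, 4.97, 4.61 and 5.12 in Fancc-/-, and 4.85, 5.75 and 5.60 in wild type. The double-knockout arrays lay above all 9 other arrays, while array medians ran from 4.79 to 4.87, so only 2 of 3 arrays of each single knockout were above their array's median. The change of the double knockout was 0.93 ± 0.24 against wild type, 1.26 ± 0.24 against Fancg-/- and 1.43 ± 0.24 against Fancc-/-. Against wild type, the change was -0.33 ± 0.24 in Fancg-/- (adjusted p = 0.888 by limma) and -0.50 ± 0.24 in Fancc-/- (adjusted p = 0.264), so neither single knockout passed. The most similar genes were Gprc5a, an orphan receptor of the G protein coupled class (r = 0.951), Zbtb21, a zinc finger gene (r = 0.939), and Jmjd1c, of the histone demethylase family (r = 0.937).

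Dusp5, a nuclear phosphatase selective for ERK, was low in Fancc-/-. The signals (1437199_at) were 9.15, 9.26 and 9.20 in the double knockout, 9.11, 8.70 and 8.42 in Fancg-/-, 8.12, 8.35 and 8.28 in Fancc-/-, and 8.51, 9.78 and 9.26 in wild type. All Fancc-/- arrays lay below all arrays of the other groups, and wild type had the widest spread, with replicate 1 low. The change in Fancc-/- against wild type was -0.94 ± 0.26, which missed the threshold (adjusted p = 0.0696 by limma), but passed without wild-type replicate 1 (-1.28, adjusted p = 0.0119). With each array left out in turn it ran from -1.28 to -0.64, with an adjusted p of 0.0119 to 0.242. Against wild type the change was -0.44 ± 0.26 in Fancg-/- (adjusted p = 0.845), and in the double knockout it was 0.02 ± 0.26. Fancg-/- was 0.50 ± 0.26 above Fancc-/- without overlap of the arrays (adjusted p = 0.607), and the double knockout was 0.96 ± 0.26 above Fancc-/-.

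Dusp6, the cytoplasmic ERK phosphatase that is itself a target of ERK signalling, was lowest in the double knockout. It was at 8.46, 7.78 and 8.04 in the double knockout, 8.62, 8.57 and 8.78 in Fancg-/-, 8.58, 8.59 and 9.28 in Fancc-/-, and 8.75, 9.29 and 9.25 in wild type (1415834_at). All 3 double-knockout arrays lay below the other 9, with replicate 1 the closest to them. The change was -1.0 ± 0.23 against wild type, -0.56 ± 0.23 against Fancg-/- and -0.72 ± 0.23 against Fancc-/-. The single knockouts did not pass against wild type, at -0.44 ± 0.23 in Fancg-/- (adjusted p = 0.765 by limma) and -0.28 ± 0.23 in Fancc-/- (adjusted p = 0.527). Its closest genes were Col27a1, a collagen gene (r = 0.940), and Cited2 and Klf2, both transcriptional regulators (r = 0.938 and 0.925).

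Dusp7, the other cytoplasmic ERK phosphatase, varied least on its brightest probe set. That probe set (1452097_a_at) was at 6.55, 6.65 and 6.41 in the double knockout, 6.44, 6.91 and 6.81 in Fancg-/-, 6.85, 6.83 and 6.50 in Fancc-/-, and 6.96, 6.57 and 6.73 in wild type. The 4 groups overlapped, and the change was -0.22 ± 0.16 in the double knockout, -0.03 ± 0.16 in Fancg-/- (adjusted p = 0.991 by limma) and -0.03 ± 0.16 in Fancc-/- (adjusted p = 0.947). The 3 probe sets of the gene disagreed in the double knockout. Another (1427416_x_at) was at 5.04, 4.79 and 4.71 in the double knockout against 5.86, 5.63 and 5.65 in wild type, a change of -0.87 ± 0.19, and the third (1460393_a_at) differed by 0.02 ± 0.13. Both were dimmer than the first, and double-knockout replicates 2 and 3 of 1427416_x_at lay below their array medians of 4.83.

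Dusp10, which acts on JNK and p38, followed Dusp5 from array to array. The signals (1417164_at) were 7.52, 7.29 and 7.25 in the double knockout, 7.21, 7.09 and 6.60 in Fancg-/-, 6.34, 6.42 and 6.71 in Fancc-/-, and 6.75, 7.77 and 7.12 in wild type. All Fancc-/- arrays were below all wild-type arrays and only just so, at 6.71 against 6.75 for the closest pair. The change in Fancc-/- was -0.73 ± 0.24 (adjusted p = 0.116 by limma) and in Fancg-/- -0.25 ± 0.24 (adjusted p = 0.938), and the double knockout differed from wild type by 0.14 ± 0.24. The double knockout was 0.87 ± 0.24 above Fancc-/- and 0.39 ± 0.24 above Fancg-/-, without overlap in either pair. A second, dim probe set (1417163_at) ran from 4.11 to 4.93 and was not used.

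The correlation of Dusp5 and Dusp10 was 0.94 over the 12 arrays and 0.87 for deviations from the group means, and each was among the 3 closest genes of the other. Zc3h12a, which encodes an RNase that degrades inflammatory mRNAs, was among the closest 3 of both (r = 0.938 with Dusp5 and 0.932 with Dusp10). The other close genes were Abt1 for Dusp5 (r = 0.950) and Rasgef1b, a Ras family exchange factor, for Dusp10 (r = 0.938). Wild-type replicate 1 was low, and replicate 2 high, for Dusp5 and Dusp10 alike, so part of this likeness lay between mice of 1 genotype.

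Dusp16, which holds JNK and p38 in check and shuttles between nucleus and cytoplasm, was the member furthest from wild type in the double knockout. Its signals (1418401_a_at) were 7.90, 8.64 and 8.88 in the double knockout, 7.22, 6.50 and 5.32 in Fancg-/-, 5.48, 5.66 and 7.12 in Fancc-/-, and 5.49, 6.47 and 5.97 in wild type. The double-knockout arrays lay above the other 9, and 2 Fancg-/- arrays and 1 Fancc-/- array stood above the wild-type range. The mean was 8.47 ± 0.51 in the double knockout against 5.98 ± 0.49 in wild type (SD, n = 3 each), a change of 2.50 ± 0.51 (SE), or 5.64-fold higher. It was 2.25 to 2.78 when each array was left out in turn, but 1.19 when the gene's 2 probe sets were averaged, since the second (1440615_at) lay below the array median on all 12 arrays. The single knockouts did not pass, at 0.37 ± 0.51 in Fancg-/- (adjusted p = 0.961 by limma) and 0.11 ± 0.51 in Fancc-/- (adjusted p = 0.929). Emp1, a small membrane protein gene, was close to Dusp16 (r = 0.964) with 7.84, 9.93 and 10.15 in the double knockout, 7.39, 6.81 and 5.99 in Fancg-/-, 5.61, 5.16 and 6.99 in Fancc-/-, and 5.52, 6.72 and 5.94 in wild type. Osgin2 (r = 0.975) and D16Ertd472e (r = 0.953) were the other close genes. D16Ertd472e is a locus name, which the rule on gene names did not pass over. Among the members, the correlation with Dusp16 was 0.86 for Dusp4 and -0.81 for Dusp1, and for deviations from the group means 0.70 and -0.38.

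**Figure D2:**
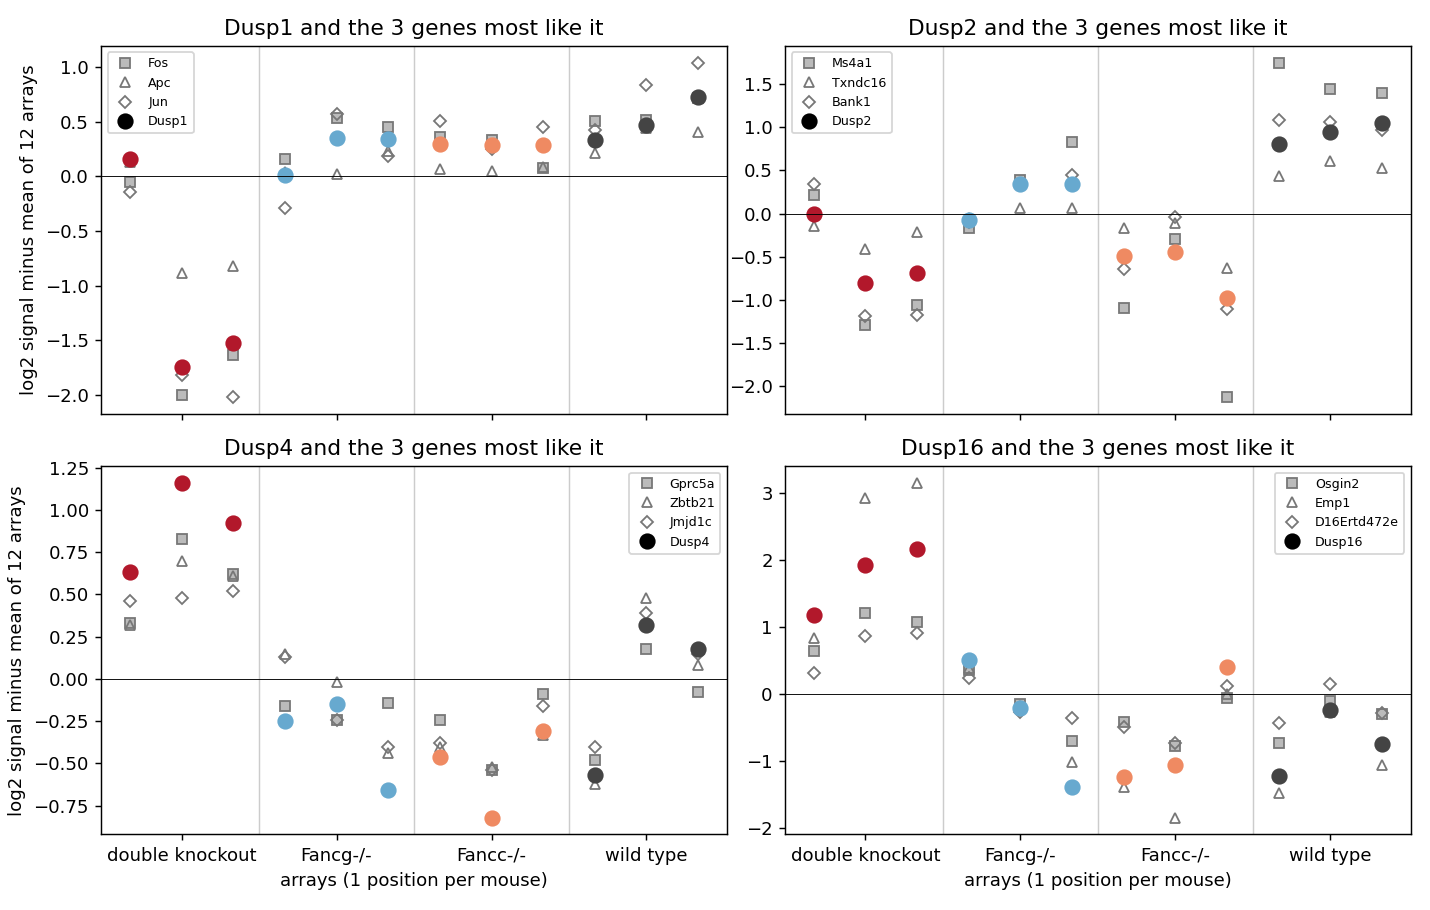
Log2 signal minus the gene's mean over the 12 arrays, for Dusp1, Dusp2, Dusp4 and Dusp16 (filled circles) and the 3 ranked genes most correlated with each (grey symbols). Positions on the x axis are the 12 arrays, from the double knockout on the left to wild type on the right. Dusp1, Fos, Apc and Jun share low values on double-knockout replicates 2 and 3 but not on replicate 1.

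The counts over the 8 members follow. In Fancc-/- against wild type 1 of 8 was called, Dusp2, where 4.54% of all genes tested were called, and 4 of 8, Dusp1, Dusp2, Dusp5 and Dusp10, were lower on all Fancc-/- arrays than on any wild-type array, which 13.1% of all genes were. For Dusp1 and Dusp10 the arrays were only just apart, at 12.48 against 12.52 and 6.71 against 6.75 for the closest pairs. The changes of 7 of the 8 were below 0, as were 51.6% of those of all genes tested. The median was -0.39, against -0.01 over all genes tested. In Fancg-/- against wild type 0 of 8 passed limma's test, where 0.0504% of all genes did. At an unadjusted p below 0.05 there was 1 member, Dusp2, and 7.00% of all genes, and Dusp2 was also the only member lower on all arrays without overlap (8.61% of all genes). Again 7 of the 8 changes were below 0, where 47.7% of all genes were, with a median of -0.30 against 0.01 over all genes. Both comparisons use the same wild-type arrays, so the signs are not independent. Without Fancg-/- replicates 1 and 3, a choice made after seeing the data, Dusp2 was at -0.59 and none of the 8 passed, with Fancg-/- represented by 1 array whose spread is assumed to be like that of the other groups.

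Between Fancg-/- and Fancc-/- 0 of 8 passed limma's test, where 0.109% of all genes did, and 1 member, Dusp2, was at an unadjusted p below 0.05, as were 9.04% of all genes. Dusp2 and Dusp5 were higher on all Fancg-/- arrays than on any Fancc-/- array, as were 7.16% of all genes. The median change of the 8 was 0.22, against 0.02 over all genes. In the double knockout against wild type, the contrast by which the genes were chosen, no calls of members are counted. There the changes of the 8 were split evenly around 0, with 4 above and 4 below and a median of -0.10. Over all genes 52.2% were below 0, with a median of -0.01. The changes of the double knockout against the single knockouts use the same 3 double-knockout arrays, and are likewise given without a test. Against Fancc-/-, 6 of 8 members did not overlap, with 4 higher and 2 lower (17.8% of all genes in either direction). Against Fancg-/-, 5 of 8 members did not overlap, with 4 higher and 1 lower (19.3% of all genes). The members were selected on these double-knockout arrays and all genes were not. Setting the counts beside these shares therefore cannot show whether the members stand out.

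**Figure D3:**
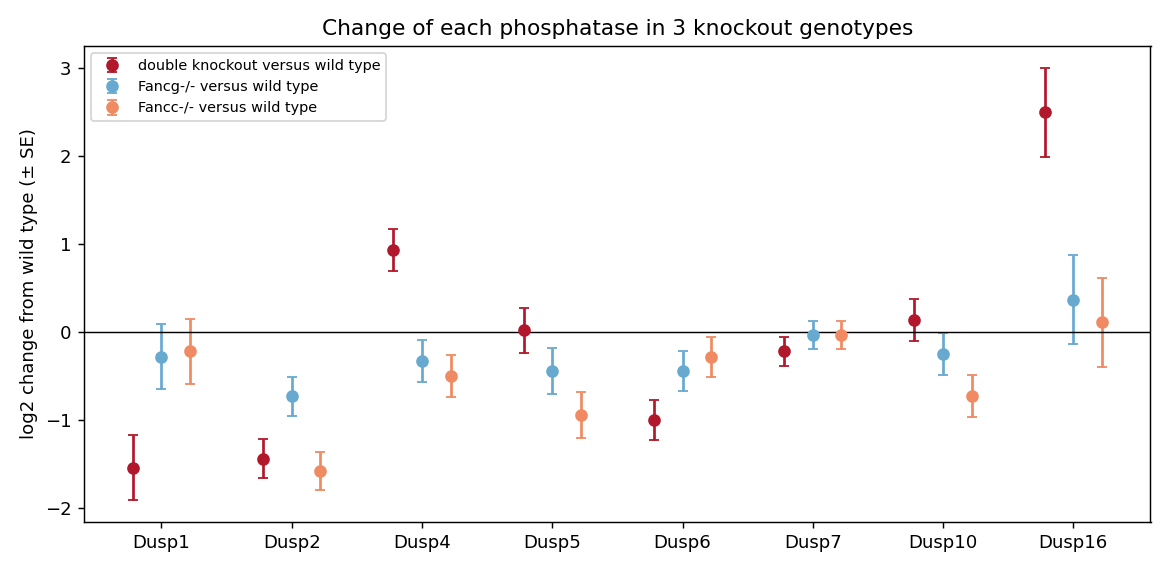
Log2 change of each phosphatase gene, with its standard error as bars, in the 3 knockout genotypes against wild type. Dusp16 of the double knockout lies furthest above 0 (2.50), and Dusp2 of Fancc-/- furthest below (-1.58).

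The order of the group means differed between members. Wild type was highest for Dusp1, Dusp2, Dusp6 and Dusp7, and the double knockout for Dusp4, Dusp5, Dusp10 and Dusp16. For Dusp4, Dusp5 and Dusp10 the order was the double knockout, wild type, Fancg-/- and Fancc-/-. Within it the double knockout did not overlap wild type for Dusp4, at a gap of 0.93, but did for Dusp5 and Dusp10, at gaps of 0.02 and 0.14. For Dusp1, Dusp6 and Dusp7 the order was wild type, Fancc-/-, Fancg-/- and the double knockout, and the neighbours Fancc-/- and Fancg-/- overlapped in all 3. For Dusp7 every pair of neighbours overlapped, at gaps of 0.03, 0.01 and 0.19. The double knockout also overlapped Fancg-/- for Dusp1, but not for Dusp6. For Dusp2 the order was wild type, Fancg-/-, the double knockout and Fancc-/-, and the first gap, 0.73, was without overlap. For Dusp16 the double knockout stood 2.13 above the next group, and Fancg-/-, Fancc-/- and wild type overlapped.

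Other genes of the pathway were read from lists. Of 20 other dual specificity and related phosphatases 12 were bright enough to test, and 1 was called, Dusp8, which acts on JNK and p38, where 4.54% of all genes were called in Fancc-/- and 5.28% in the double knockout against wild type. It was at 7.43, 7.03 and 7.11 in the double knockout, 7.05, 7.08 and 6.71 in Fancg-/-, 7.49, 7.32 and 7.28 in Fancc-/-, and 6.62, 6.53 and 6.66 in wild type. Every knockout array was above every wild-type array. Dusp8 rose by 0.76 ± 0.14 in Fancc-/- against wild type (adjusted p = 0.0117 by limma) and by 0.59 ± 0.14 in the double knockout (adjusted p = 0.0405). The call in Fancc-/- held in 24 of 25 alternative settings, the exception being the fit without replicate 2 of wild type (adjusted p = 0.0633). The call in the double knockout held in 14 of 25 and was lost, for example, without double-knockout replicate 3 (adjusted p = 0.119). In Fancg-/- the change of Dusp8 against wild type was 0.34 ± 0.14 (adjusted p = 0.647). Of the other genes tested, Ptpmt1, a mitochondrial phosphatase, had a change of 0.44 ± 0.14 in the double knockout and 0.39 ± 0.14 in Fancg-/- and did not pass (adjusted p = 0.081 and 0.546). Dusp14 was at 5.29, 6.49 and 5.95 in the double knockout and 5.00, 5.00 and 4.98 in wild type, and was not called either. In the double knockout against wild type 4 of the 12 had an unadjusted p below 0.05 by limma, as did 24.2% of all genes. The medians of the 12 genes were 0.12 in the double knockout, 0.07 in Fancg-/- and 0.03 in Fancc-/-.

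In the double knockout against wild type 5 of the 43 genes tested in 4 lists of kinases, Ras proteins, adaptors and other phosphatases were called. That was 11.6%, against 5.28% of all genes, and no other comparison had a call in these lists. Of 13 MAP kinases 8 were tested. Mapk6, an atypical MAP kinase, was higher by 0.93 ± 0.24 (adjusted p = 0.0495 by limma). Of 22 upstream kinases, Ras proteins and adaptors tested, Map2k3, which activates p38, was higher by 0.84 ± 0.17 (adjusted p = 0.0211 by limma), and Map3k1, which acts upstream of JNK, had a change of -0.59 ± 0.15 (adjusted p = 0.0433). Of 7 kinases activated by MAP kinases tested, Rps6ka5, which phosphorylates histone H3 and CREB, had a change of -0.92 ± 0.21 (adjusted p = 0.0357 by limma). Of 6 other phosphatases that act on MAP kinases, Ppm1d, a p53 target that acts on p38, was higher by 0.72 ± 0.15 (adjusted p = 0.0244 by limma). These calls were not stable: that of Mapk6 held in 6 of 25 alternative settings, Map3k1 in 8 of 24, Rps6ka5 in 15, Ppm1d in 17 and Map2k3 in 18 of 25. In the single knockouts against wild type 0 genes of these 4 lists passed limma's test. At an unadjusted p below 0.05 there was Map3k1 alone in Fancg-/-, or 2.33% of the 43 against 7.00% of all genes. In Fancc-/- there were 6, Rps6ka5, Mapk9, Ppm1d, Grb2, Map2k5 and Map3k1, fewer than the 19.8% of all genes at such a p. Genes named for an unadjusted p, here and for the other lists, were chosen after their values were seen.

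Of 12 genes that respond to ERK or feed back on it 0 passed limma's test in any comparison with wild type. In the double knockout 5 had an unadjusted p below 0.05, as did 24.2% of all genes. They were Spred2 (0.83 ± 0.22, adjusted p = 0.0507), Spred1 (0.43 ± 0.16) and Errfi1 (1.20 ± 0.36), which restrain signalling to ERK, and Ier3 (-0.76 ± 0.25) and Lif (-0.67 ± 0.26). In Fancc-/- there were 3, Lif (-0.83 ± 0.26), Ccnd1, which encodes cyclin D1 (-0.95 ± 0.43), and Etv4, an ETS factor (0.36 ± 0.13), and in Fancg-/- there were 0. The medians of the list were -0.08 in the double knockout, 0.01 in Fancg-/- and 0.03 in Fancc-/-, close to those of all genes.

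The immediate early and handling stress genes, which serum, stress or the handling of tissue induce within minutes and to which Dusp1 is closest, were all bright enough to test (25 genes). In the double knockout against wild type 8 of 25 were lower and 0 higher past the threshold, where 3.02% of all genes were lower, and the median change was -0.96 against -0.01 over all genes. Egr1, a zinc finger factor, was at 11.09, 9.07 and 8.88 in the double knockout, 11.42, 11.90 and 11.03 in Fancg-/-, 11.30, 10.91 and 11.09 in Fancc-/-, and 11.15, 12.61 and 12.33 in wild type. Double-knockout replicate 1 was again with the single knockouts, and wild-type replicate 1 stood below the other wild-type arrays. The change of Egr1 was -2.35 ± 0.52 (adjusted p = 0.0295 by limma), that of Jun -2.09 ± 0.40 (adjusted p = 0.0185) and that of Fos -1.81 ± 0.36 (adjusted p = 0.0211). Zfp36, which encodes an mRNA-destabilizing protein, changed by -1.79 ± 0.32 (adjusted p = 0.0174), and Klf2, Junb, Ier2 and Ier5 were the other 4, at -1.79, -1.26, -1.06 and -1.03.

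The count of 8 depended on single arrays. It was 13 without double-knockout replicate 1, 0 without double-knockout replicate 2 or 3, 0 without wild-type replicate 2 or 3, 5 without wild-type replicate 1, and 4 without Fancg-/- replicates 1 and 3. With array weights it was 18, and with the Xist signal as a covariate it was 0. Xist itself parted these groups (1427262_at, 3.06 to 4.35 in the double knockout, 9.95 to 10.80 in wild type), so the fit with it cannot separate genotype from sex. In Fancc-/- against wild type 2 of 25 were lower past the threshold, as were 2.36% of all genes. They were Gadd45b, a stress-induced gene (-1.07 ± 0.16, adjusted p = 0.00389 by limma), and Klf4, a transcription factor (-1.15 ± 0.27, adjusted p = 0.0348), and the median change of the list was -0.50. Gadd45b passed in all 25 alternative settings and Klf4 in 16. The count of 2 was 5 without double-knockout replicate 1, 5 with array weights and 4 of 47 with each probe set tested by itself. It was 1 without Fancc-/- replicate 1 or 3, without Fancg-/- replicate 1 or 2, without both Fancg-/- replicates 1 and 3, without wild-type replicate 2 or 3, and with Xist as a covariate. In Fancg-/- against wild type 0 of 25 passed limma's test, with Jund at an unadjusted p below 0.05 (-0.56 ± 0.12, adjusted p = 0.186) and a median of -0.32. How far the handling of the marrow entered these values was not tested.

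**Figure D4:**
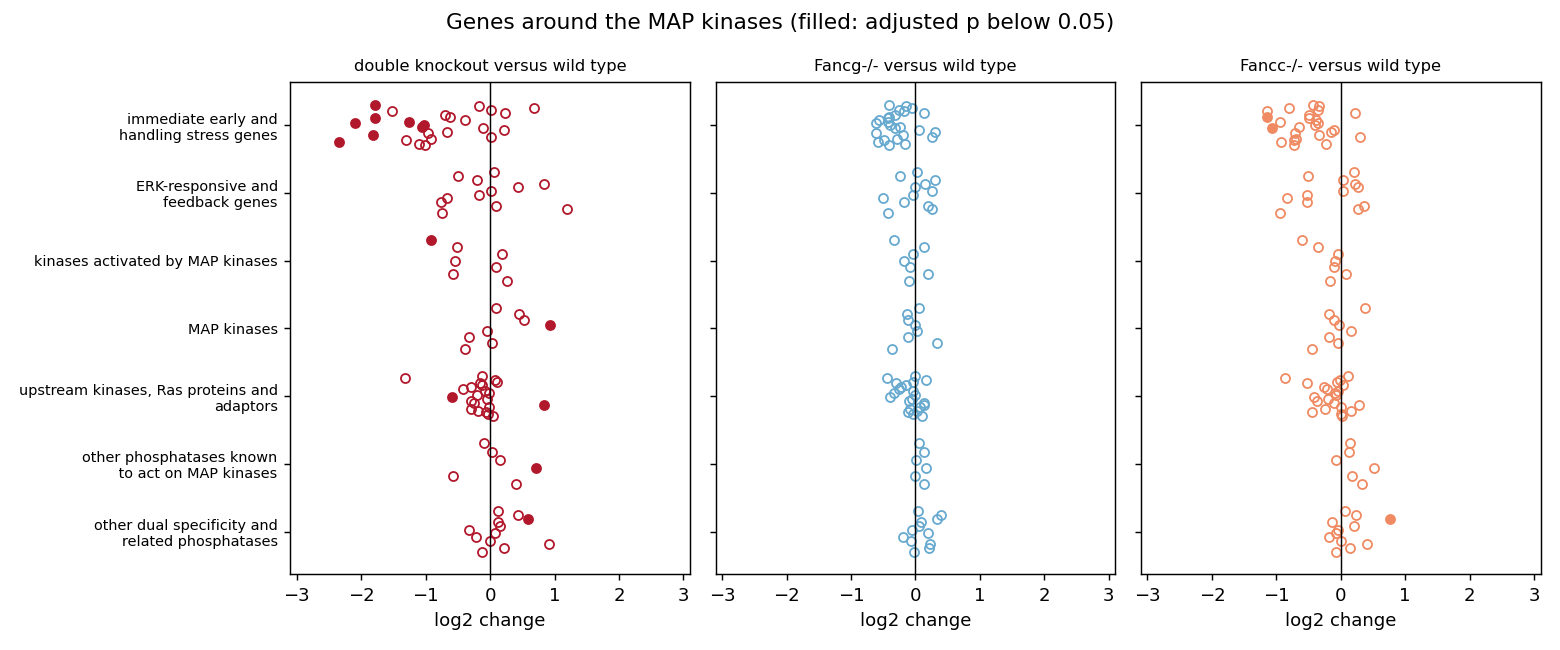
Log2 change against wild type of every tested gene in 7 lists of MAP kinase pathway genes, in the double knockout, Fancg-/- and Fancc-/-. Each point is a gene, and filled points have an adjusted p below 0.05. The 8 filled points of the immediate early genes in the double knockout all lie below 0, and no point is filled in Fancg-/-.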

How the data were processed

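RNA of whole marrow was measured on Affymetrix arrays in 12 mice, 3 per group, without pooling. The input was 2 µg of total RNA, but 0.91 µg for Fancg-/- replicate 3, per the labels. As deposited, each probe set has a log2 signal, for which the submitters' processing notes name RMA and Partek, without versions. They ran from 2.43 to 14.6, with array medians of 4.79 to 4.87. An array signal is no count, so the number of arrays limits precision.

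Of 45101 probe sets, without 64 array controls, 34945 had 1 gene symbol, 932 had several and 9160 had none. The last 2 kinds were not used here. Where a gene (18193 in all) had several, the brightest by mean was taken. It was tested if above the array median (percentile 50) on at least 3 arrays, which left 11906, and 6287 dim genes were not tested.

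Comparisons used limma 3.58.1 (R 4.3.3), with 1 model of 4 group means over 12 arrays with moderated variances, a variance trend and 8 residual degrees of freedom. There were 6 comparisons. Tests were 2-sided, with Benjamini-Hochberg adjustment over all genes of a comparison. The script was tested on simulated data. Members, gene lists and naming rules were chosen with earlier results of these data known. Named were the 8 members, the 3 genes most correlated with each over the 12 arrays, and the genes of the pathway lists that were called. Predicted genes, microRNAs and genes named by accession or clone were passed over in the correlations. Alternatives covered the filter, the probe set of a gene, array scaling, the variance model, array weights, the groups fitted, a replicate block, a covariate for Xist, and each array left out once. Leaving out Fancg-/- replicates 1 and 3 was added after the data were seen. Replicate numbers were checked for pairing by the correlation, across genes, of deviations from group means. In Fancc-/- and wild type all 3 same-numbered pairs were above 0.1 (0.146 to 0.159). In the other 5 comparisons at least 1 pair was not above 0.1. Only same-numbered pairs were compared, so these weak correlations cannot show whether the numbers pair the mice, and the labels do not say so. The main model has no term for pairs.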

Additional observations from a re-analysis of the deposited data

How the results depend on the processing

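Dusp2 in Fancc-/- against wild type was called in all 25 alternatives. Dusp5 in that comparison became called with array weights (-1.04, adjusted p = 0.0484 by limma), as did Dusp2 in Fancg-/- against wild type (-0.83, adjusted p = 0.0152). Dusp4 was too dim for the stricter filter (percentile 75) and has no value there. Of 1018 tested values of members and pathway genes under the alternatives, 847 kept their direction and side of the threshold, 143, all of pathway genes, were no longer called, 3 became called and 25 had the opposite sign. Of 594 untested values of members in the double knockout, 577 moved by less than the mean SD within groups, 17 by more, and 7 had the opposite sign. Of 1050 counts of called genes in a list, 886 were equal to the reported count, 13 differed within 1.5 times and 151 by more.

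Leaving out each array in turn gave 16 to 1853 called genes in the double knockout against wild type (629 as reported), 0 to 31 in Fancg-/- against wild type (6), 175 to 712 in Fancc-/- against wild type (540), 1 to 1285 in the double knockout against Fancc-/- (1), 0 to 993 in the double knockout against Fancg-/- (0) and 0 to 51 in Fancg-/- against Fancc-/- (13). Array weights gave 3382 in the double knockout and 277 in Fancg-/- against wild type, 1727 and 2251 in the double knockout against Fancc-/- and Fancg-/-, and 38 between the single knockouts. A fit of only the 2 groups compared gave 72 in Fancg-/- and 247 in Fancc-/- against wild type, 3 and 2 in the double knockout against Fancc-/- and Fancg-/-, and 0 between the single knockouts. With Xist as a covariate there were 0 in the double knockout and in Fancg-/-, each against wild type and against Fancc-/-. Xist differed between the groups of these comparisons, most for the double knockout, so this fit cannot separate genotype from sex. Without Fancg-/- replicates 1 and 3 there were 224 in the double knockout and 279 in Fancc-/- against wild type, 5 in the double knockout against Fancc-/- and 2 between the single knockouts. In Fancg-/- against wild type the stricter filter gave 2 and the mean of probe sets 10. In the double knockout against Fancc-/- the stricter filter gave 38, the mean of probe sets 21, each probe set by itself 60, median centring 15 and a second quantile normalization 19. Between the single knockouts the mean of probe sets gave 1, each probe set by itself 4, median centring 3 and no variance trend 1. The causes were not tested.

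Fancc-/- and wild type were the one comparison where every same-numbered pair had a correlation of deviations above 0.1 (6 of 18 pairs in all, range -0.365 to 0.195). With the replicate number as a block there were 463 called genes in the double knockout, 5 in Fancg-/- and 528 in Fancc-/- against wild type, 5 in the double knockout against Fancc-/-, 0 against Fancg-/- and 7 between the single knockouts, and Dusp2 in Fancc-/- remained called (adjusted p = 0.0068). The block changed no call of a member, Dusp8, Gadd45b or Klf4 in Fancc-/- against wild type, and B cell markers stayed at 11 lower of 13.

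Changes of the opposite sign occurred for members that were not called or not tested. In the double knockout, Dusp2 against Fancc-/- was at -0.14 with array weights and -0.10 to 0.29 with single arrays left out (0.14 as reported). Against wild type, Dusp5 was at -0.07 with array weights and -0.32 to 0.32 with single arrays left out (0.02 as reported), and Dusp10 at -0.09 to 0.42 with single arrays left out (0.14 as reported). Dusp7 was at 0.05 and 0.01 after a second quantile normalization in Fancc-/- and Fancg-/- against wild type, at 0.07 with array weights in Fancc-/- against wild type, at 0.02 with median centring between the single knockouts, and without Fancg-/- replicates 1 and 3 at 0.15 in Fancg-/- against wild type and 0.18 between the single knockouts. With single arrays left out it ran from -0.12 to 0.08 in Fancc-/- and -0.13 to 0.11 in Fancg-/- against wild type, and from -0.12 to 0.13 between the single knockouts. Dusp16 in Fancc-/- against wild type was at -0.07 with the mean of probe sets, -0.27 with array weights and -0.41 to 0.41 with single arrays left out. In Fancg-/- Dusp16 ran from -0.07 to 0.88 against wild type and -0.18 to 0.78 against Fancc-/-. Dusp1 between the single knockouts was at 0.03 with Xist as a covariate, 0.06 without Fancg-/- replicates 1 and 3 and -0.12 to 0.05 with single arrays left out. Dusp6 ran from -0.28 to 0.07 between the single knockouts and Dusp10 from -0.48 to 0.03 in Fancg-/- against wild type.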
